A study of Mus musculus with 18 samples.

Results

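Cholesterol and fatty acids are built from acetyl-CoA by dedicated enzyme chains, and the 32 genes described here are 18 sterol enzyme genes, 8 fatty acid enzyme genes and 6 genes of the machinery that sets or carries their products. They were taken from a list of names, with the brightest probe set over all 18 arrays standing for each gene. A probe set annotated to a single symbol was found for 31 of the 32 genes, out of 18194 genes in all. Acat2, the cytosolic acetyl-CoA acetyltransferase, was the gene not represented. All 31 passed the filter on dim genes and were among the 13728 genes tested, so none was dropped for a low value.

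The RNA came from mouse embryonic fibroblasts (MEFs), connective tissue cells isolated from E13.5 embryos and passaged a few times. The genotypes grown were wild type (WT), Atf4-/- and Cebpg-/-. After 24 h on the plate each genotype was given fresh normal medium or amino acid-deprived (AAD) medium for 3 h, which made 6 groups of 3 arrays. The AAD medium was a supplemented Krebs-Ringer buffer, so loss of amino acids and loss of the other components of growth medium cannot be told apart. The deletions were carried throughout the culture and not induced, and the labels do not say whether the replicates of a genotype came from separate embryos, so every p-value measures only the spread between these samples.

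Sterol synthesis runs from acetyl-CoA through mevalonate and the isoprenoid farnesyl pyrophosphate to squalene, lanosterol and cholesterol, while fatty acid synthesis runs from citrate through malonyl-CoA to palmitate, which is then elongated and desaturated. Both chains are under the SREBP transcription factors, encoded by Srebf1 and Srebf2. SREBPs are held in the endoplasmic reticulum by SCAP and the INSIG proteins while sterol is plentiful, and are carried to the Golgi and cut loose when sterol is scarce. ATF4 is the main transcription factor of the amino acid response, and C/EBPγ, encoded by Cebpg, is a small bZIP protein that can pair with it.

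Upstream sequence is shown for 4 genes because they span the patterns described below: Idi1 and Hmgcs1 are sterol enzyme genes that stood far lower without ATF4, Insig1 moved with them but rose under AAD medium in both knockouts, and Insig2 was the gene that moved the opposite way. The 250 bases before each start site were taken from RefSeq (GRCm38.p6), and entries were found for 25 of the 32 genes. Capitals mark matches to a sterol regulatory element spelled TCACNCCAC, an E-box spelled CACGTG or an NF-Y box spelled CCAAT, searched on both strands, and no match printed here overlaps another.

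Hmgcs1, chr13:119690101-119690350, plus strand: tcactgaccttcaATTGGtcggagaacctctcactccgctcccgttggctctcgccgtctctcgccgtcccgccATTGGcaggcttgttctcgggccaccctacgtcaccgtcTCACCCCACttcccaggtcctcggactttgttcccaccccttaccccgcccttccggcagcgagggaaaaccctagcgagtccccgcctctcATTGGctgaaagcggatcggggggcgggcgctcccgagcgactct

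Idi1, chr13:8885356-8885605, plus strand: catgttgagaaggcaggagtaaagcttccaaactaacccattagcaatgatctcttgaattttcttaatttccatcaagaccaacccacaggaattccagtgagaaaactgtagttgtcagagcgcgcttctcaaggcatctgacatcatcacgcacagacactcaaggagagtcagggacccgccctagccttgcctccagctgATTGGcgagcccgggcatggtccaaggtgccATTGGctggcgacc

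Insig1, chr5:28071162-28071411, plus strand: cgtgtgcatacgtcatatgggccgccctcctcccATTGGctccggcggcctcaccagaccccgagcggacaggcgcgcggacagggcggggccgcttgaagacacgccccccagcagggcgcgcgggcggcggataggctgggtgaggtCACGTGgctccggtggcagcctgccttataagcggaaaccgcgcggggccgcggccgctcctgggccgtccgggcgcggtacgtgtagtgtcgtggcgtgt

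Insig2, chr1:121332590-121332839, minus strand: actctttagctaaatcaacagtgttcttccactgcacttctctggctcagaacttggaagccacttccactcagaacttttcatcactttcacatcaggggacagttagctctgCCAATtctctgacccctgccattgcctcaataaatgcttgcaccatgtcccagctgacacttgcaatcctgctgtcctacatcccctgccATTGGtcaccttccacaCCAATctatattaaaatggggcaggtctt

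The NF-Y box was present in 19 of the 25 genes, against 37.5% of all 27025 genes in the same table. The sterol regulatory element spelled this way was found in 1 of the 25, Hmgcs1, 137 to 129 bases before its start, against 1.22% of all genes. The E-box was found in 5 of the 25 (Hsd17b7, Sc5d, Dhcr7, Scap and Insig1), against 6.86%. An amino acid response element spelled TGATGNAAT, the kind of site ATF4 dimers are known to bind, was found in 0 of the 25 genes, against 0.91% of all genes. These matches describe letters within 250 bases and are not measured binding sites, and a missing match says only that these letters are not in this window. Insig2 has 3 start sites in the table, and the window printed is the one with NF-Y boxes.

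The deposited log2 values had medians of 5.21 to 5.27 across the 18 arrays, and all levels below are on that log2 scale. In normal medium Atf4 itself gave 12.10 ± 0.07 (SD, n = 3) on WT arrays and 6.50 ± 0.16 on Atf4-/- arrays. For Cebpg the brightest probe set gave 9.27 ± 0.09 for WT against 9.31 ± 0.06 for Cebpg-/- cells, and since it is not known whether it lies in the deleted part, it gives no check of that label. The 12 fibroblast markers were bright in every group, at array means from 10.54 to 11.62. The 14 macrophage markers were also present in all cultures, with array means in normal medium of 7.73 to 7.96 in WT, 8.17 to 8.38 in Atf4-/- and 8.49 to 8.90 in Cebpg-/- cells. The fibroblast marker means ran the other way, at 11.37 to 11.54, 10.80 to 11.03 and 10.54 to 10.96, in the same order. In Atf4-/- cells 7 of the 14 macrophage markers were higher than in WT and none lower, and of the 12 fibroblast markers 6 were lower and 2 higher, where 30.2% of all genes were higher and 21.4% lower. In Cebpg-/- cells 13 macrophage markers were higher and none lower, and 8 fibroblast markers were lower and none higher, where 12.3% of all genes were higher and 11.1% lower. Of the 6 muscle markers tested 2 were lower in Atf4-/- and 4 in Cebpg-/- cells, with array means of all 8 at 8.30 to 8.57 in WT, 8.32 to 8.38 in Atf4-/- and 8.04 to 8.23 in Cebpg-/- cells. This marker shift goes along with each knockout result below, and its part in them was not tested. The 8 adipocyte markers measured had group means of at most 5.97, with 3 of the 8 below the filter value of 4.65 in every group, and hepatocyte markers had group means of 4.65 to 4.80. The second Cebpg-/- AAD array stood apart with an epithelial marker mean of 7.21, against 5.36 to 5.72 on the other arrays, and results that use it are given with and without it. In bulk RNA, fewer cells of a type and less RNA per cell cannot be told apart.

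The first comparison asked how the pathway stood without ATF4 in normal medium. Nearly the whole list was lower in Atf4-/- than in WT cells: 29 of 31 genes were lower, 1 was higher and 1 was not called (limma, adjusted p under 0.05 over all genes tested). Of all genes tested 51.5% were called, with 21.4% of all genes tested lower and 30.2% higher. The median log2 change of the 31 genes was -1.15, beside 0.02 for all genes, and 17 of the 31 were at least 2-fold lower, against 3.92% of all genes. Genes given array by array here and below were mostly picked for large changes. Lack of overlap between their groups is therefore description only, and its share over all genes is not given.

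**Figure D1:**
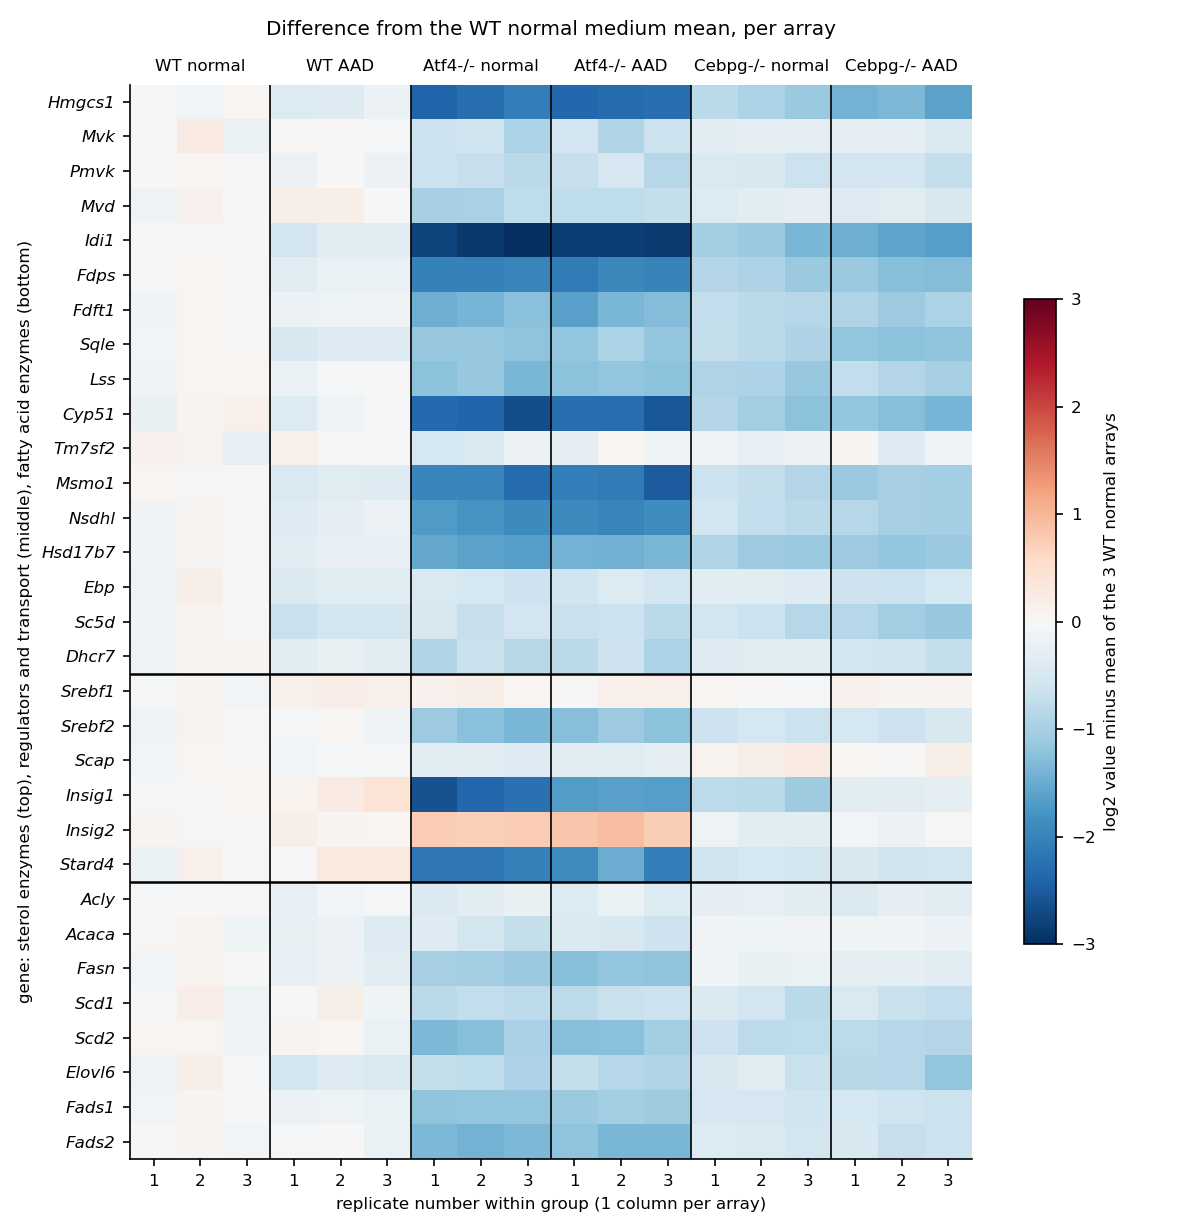
Each row is a gene and each column an array, coloured by the log2 value minus the mean of the 3 WT normal arrays of that gene (colour scale from -3 to 3). Columns are grouped by genotype and medium, and black lines separate the 17 sterol enzymes, the 6 regulators and transport genes and the 8 fatty acid enzymes. The Atf4-/- arrays are blue in nearly every row, with Idi1 the darkest and Insig2 the row in red.

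All 17 sterol enzymes were lower in Atf4-/- cells, at a median of -1.25. Idi1, which makes dimethylallyl pyrophosphate from its isomer, stood at 10.65 on all 3 WT normal arrays and at 7.88, 7.76 and 7.66 on the Atf4-/- normal arrays. The groups were far apart, and the difference was -2.88 ± 0.09 (SE; 7.37-fold lower, adjusted p = 2.9e-12 by limma). Cyp51, the lanosterol demethylase, measured 9.88, 10.17 and 10.24 on the WT arrays against 7.75, 7.70 and 7.43 on the Atf4-/- arrays. Its lowest WT array was above its highest Atf4-/- array by a wide margin, and its change was -2.46 ± 0.12. Hmgcs1, the synthase that starts the mevalonate route, read 11.68, 11.59 and 11.72 on the WT arrays against 9.26, 9.41 and 9.58 on the Atf4-/- arrays, without overlap and with a change of -2.25 ± 0.10.

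Smaller but still more than 4-fold differences were found for Msmo1, a methyl sterol oxidase (-2.08 ± 0.11), and Fdps, farnesyl pyrophosphate synthase (-2.01 ± 0.07). Nsdhl, a sterol dehydrogenase, and Hsd17b7, the keto sterol reductase, were lower by 3.48-fold and 3.02-fold. Fdft1, squalene synthase, Lss, which closes squalene epoxide into lanosterol, and Sqle, the squalene epoxidase, had changes of -1.38 ± 0.08, -1.25 ± 0.08 and -1.15 ± 0.07. The remaining enzymes were called at under 2-fold: Mvd, Dhcr7, Mvk, Pmvk, Sc5d, Ebp and Tm7sf2, from -0.91 ± 0.08 for Mvd to -0.38 ± 0.13 for Tm7sf2 (adjusted p = 0.0185). Tm7sf2, a sterol reductase gene, was the call lost when single arrays were left out, in 4 of the 18 cases. Each of these left out an array of the groups compared, which have 3 arrays each. The enzymes changed by under 2-fold were Mvk, Pmvk and Mvd of the mevalonate route and Tm7sf2, Ebp, Sc5d and Dhcr7, which act after lanosterol. Hmgcs1, Cyp51, Msmo1, Nsdhl and Hsd17b7 of the same stretches were more than 2-fold lower, so place in the chain did not separate them. The split at 2-fold holds for the chosen probe sets: a further Mvd probe set gave -1.07, and a further Lss probe set gave -0.79. Dim further probe sets of Fdft1 and Msmo1 gave -0.01 and -0.27.

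All 8 fatty acid enzymes were lower in Atf4-/- cells too, at a median of -0.92. Fads2, a desaturase of polyunsaturated fatty acids, measured 8.80, 8.90 and 8.74 on the WT arrays against 7.47, 7.38 and 7.47 on the Atf4-/- arrays, a change of -1.37 ± 0.07. Scd2, a stearoyl-CoA desaturase, read 12.22, 12.23 and 12.05 against 10.83, 10.90 and 11.20, a change of -1.19 ± 0.10. Neither gene had overlapping arrays between the genotypes. Fads1, its neighbour in polyunsaturated fatty acid synthesis (-1.19 ± 0.05), and Fasn, the fatty acid synthase (-1.05 ± 0.06), were the other fatty acid genes more than 2-fold lower. Elovl6, an elongase, Scd1, the other stearoyl-CoA desaturase, Acaca, acetyl-CoA carboxylase, and Acly, ATP citrate lyase, had changes of -0.80 ± 0.11, -0.78 ± 0.11, -0.55 ± 0.08 and -0.33 ± 0.07. The supply steps Acly and Acaca therefore had the smallest changes of this branch and the desaturases Fads2, Scd2 and Fads1 the largest. This order too holds for the chosen probe sets: further ones gave -1.06 for Scd1 and -0.62 for Fads1.

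The 6 regulators and transport genes split. Insig1, the INSIG protein gene that SREBP itself is known to drive, measured 9.44, 9.45 and 9.53 on the WT arrays against 6.86, 7.12 and 7.22 on the Atf4-/- arrays, a change of -2.40 ± 0.10 with no overlap. Stard4, a carrier that moves cholesterol between membranes, had a change of -2.10 ± 0.13. Srebf2, the SREBP gene with the stronger tie to sterol synthesis, measured 8.39, 8.65 and 8.59 on the WT arrays against 7.46, 7.29 and 7.18 on the Atf4-/- arrays, a change of -1.23 ± 0.08. Srebf2 lies 1.92 Mb from Atf4 on chromosome 15, the shortest distance of any of these genes to either deleted gene, and whether the targeted locus or DNA linked to it plays a part was not tested. Scap, the escort of SREBP, was lower by a small amount (-0.34 ± 0.06).

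Insig2, the INSIG gene that does not depend on SREBP in the same way, went the other way. It read 8.61, 8.49 and 8.46 on the WT arrays against 9.27, 9.23 and 9.27 on the Atf4-/- arrays, a change of 0.74 ± 0.07 (1.67-fold higher, adjusted p = 3.29e-07). The groups did not overlap, and the other Insig2 probe sets gave changes of 0.91 and 1.03. Srebf1, the SREBP gene better known for lipogenesis, was not called, at 0.11 ± 0.06 (adjusted p = 0.111, 95% interval -0.01 to 0.23). That interval holds no change of the size seen for Srebf2.

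Many of the genes have more than 1 probe set, which allows a check within the array. In 19 of the 31 genes 33 further probe sets stood above the filter value, and none of them had the opposite sign to the chosen probe set in this comparison. Their sizes varied more. Some dim ones changed far less than the chosen one: Fdft1 gave -0.01 and -0.30 against -1.38, and Msmo1 -0.27 against -2.08. A dim Sc5d probe set gave -0.07 against -0.58, and a dim Acly one -0.05 against -0.33. Others changed more, such as Cyp51 (-3.02 against -2.46) and Hmgcs1 (-2.49 against -2.25). In other comparisons 1 further probe set of a called gene had the opposite sign: a dim Fdft1 probe set in Cebpg-/- against WT in normal medium (0.25, where the chosen one gave -0.80), and a dim Acly probe set in AAD medium in Atf4-/- (0.17 against -0.21) and in Cebpg-/- cells (0.08 against -0.22).

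**Figure D2:**
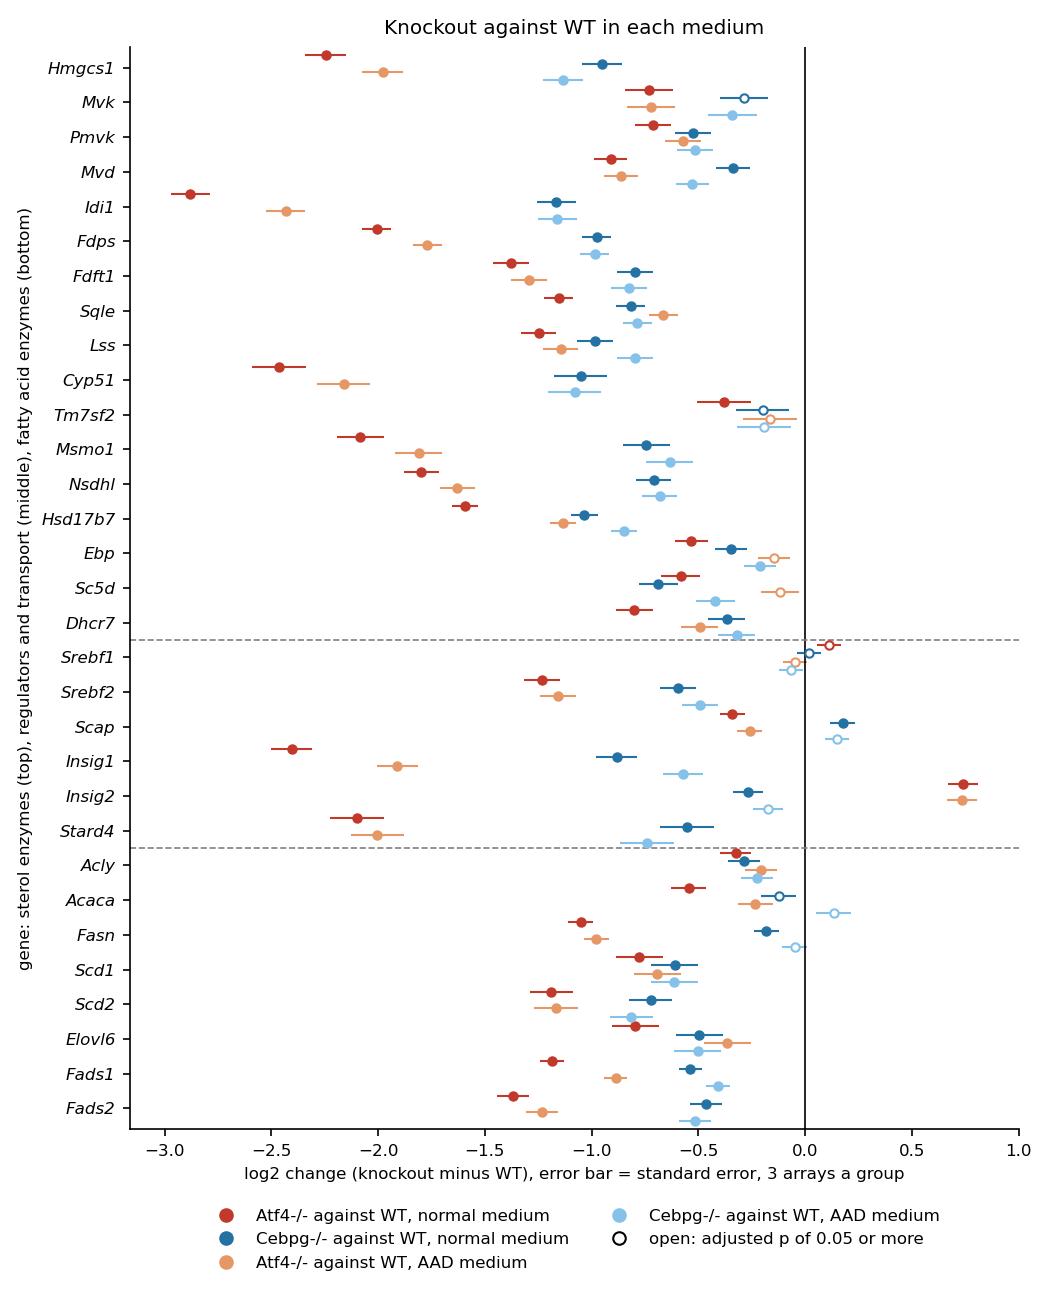
Points are log2 changes of each knockout against WT and bars their standard errors, with 1 row per gene and a colour for each knockout and medium; open points had an adjusted p of 0.05 or more. The Atf4-/- points lie furthest left for Idi1 (-2.88), Cyp51 (-2.46) and Insig1 (-2.40), and both Atf4-/- points of Insig2 lie right of the 0 line (0.74 and 0.73).

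Without C/EBPγ in normal medium the same list was lower as well, by less. Of the 31 genes 26 were lower than in WT, 1 was higher and 4 were not called, where 23.3% of all genes tested were called, 11.1% lower and 12.3% higher. The median change was -0.56, beside 0.04 for all genes, and 3 of the 31 genes were at least 2-fold lower against 1.27% of all genes. Both knockouts were set against the same WT arrays, so the values of the knockouts are given side by side and not as separate support for each other.

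Of the 17 sterol enzymes 15 were lower, at a median of -0.74. Idi1 stood at 9.64, 9.54 and 9.27 in Cebpg-/- cells against 10.65 on each WT array, a change of -1.17 ± 0.09 (2.25-fold lower, adjusted p = 7.26e-07 by limma). Cyp51 read 9.21, 9.06 and 8.86, below the 9.88 to 10.24 of WT, with a change of -1.05 ± 0.12. Hsd17b7 stood at 8.34, 8.17 and 8.14 against 9.14, 9.33 and 9.28 in WT, a change of -1.03 ± 0.06. Lss read 7.85, 7.83 and 7.63 against 8.65, 8.80 and 8.81, a change of -0.98 ± 0.08. None of these enzymes had overlapping arrays. Fdps (-0.98 ± 0.07) and Hmgcs1 (-0.95 ± 0.10) were close to them, and the other lower enzymes lay between -0.82 for Sqle and -0.34 for Mvd. Mvk, mevalonate kinase (-0.29 ± 0.11, adjusted p = 0.0825), and Tm7sf2 (-0.20 ± 0.13, adjusted p = 0.286) did not pass.

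Of the 8 fatty acid enzymes 7 were lower in Cebpg-/- cells, at a median of -0.48. Scd2 stood at 11.54, 11.38 and 11.40, against 12.05 to 12.23 in WT, a change of -0.72 ± 0.10. Scd1, Fads1, Elovl6 and Fads2 followed with changes from -0.61 to -0.47, and Acly had a change of -0.29 ± 0.07. Fasn, which was 2.07-fold lower without ATF4, had a change of -0.18 ± 0.06 here (adjusted p = 0.0339), and Acaca did not pass (-0.12 ± 0.08, adjusted p = 0.314). Among the regulators Insig1 (-0.88 ± 0.10), Srebf2 (-0.59 ± 0.08) and Stard4 (-0.56 ± 0.13) were lower. Insig2 was lower as well (-0.27 ± 0.07, adjusted p = 0.012), where it was higher in Atf4-/- cells. That call was lost without any of 3 single arrays, and the other Insig2 probe sets gave changes of -0.14 each. Scap was the gene called higher (0.18 ± 0.06, adjusted p = 0.0379), and Srebf1 was not called (0.02 ± 0.06). The calls of Scap and Fasn were each lost in 4 of the 18 fits that left out an array. All of these left out an array of the groups compared, which have 3 arrays each.

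The knockouts were then set directly against each other, a comparison added after the data had been seen. In normal medium 23 of the 31 genes were higher in Cebpg-/- than in Atf4-/- cells, 1 was lower and 7 were not called, with 49.6% of all genes called (22.2% higher, 27.4% lower). Idi1 had the largest difference (1.71 ± 0.09), followed by Stard4 (1.54 ± 0.13), Insig1 (1.52 ± 0.10) and Cyp51 (1.41 ± 0.12). Stard4 stood at 6.29, 6.29 and 6.40 in Atf4-/- and 7.82, 7.91 and 7.88 in Cebpg-/- cells, below the WT arrays at 8.22, 8.58 and 8.47. Stard4 thus had 3 separate levels, with Cebpg-/- cells between Atf4-/- and WT cells. Fasn and Fads2 differed by 0.87 ± 0.06 and 0.90 ± 0.07, the largest differences among the fatty acid enzymes.

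Not every gene was lower in Atf4-/- than in Cebpg-/- cells. Insig2 was lower in Cebpg-/- cells by the comparison of the knockouts (-1.01 ± 0.07, adjusted p = 2.03e-08), at 8.36, 8.21 and 8.17 against 9.27, 9.23 and 9.27. Sc5d, the sterol desaturase (-0.11 ± 0.09, adjusted p = 0.356), Ebp, the sterol isomerase (0.19 ± 0.08, adjusted p = 0.0527), Pmvk, Tm7sf2, Acly, Scd1 and Srebf1 were not called. For Sc5d the 3 arrays of Atf4-/- (9.58, 9.37, 9.48) and Cebpg-/- cells (9.50, 9.41, 9.20) overlapped.

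**Figure D3:**
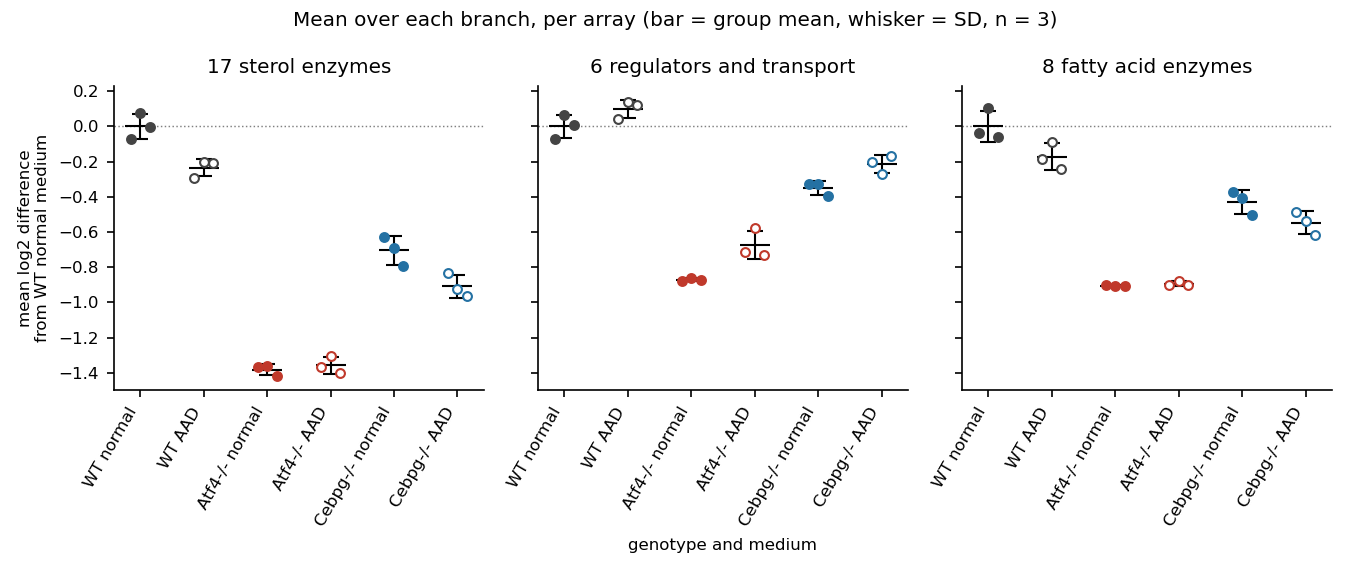
Points are arrays and give the mean over each branch of the log2 difference from the WT normal mean, with filled points for normal and open points for AAD medium; bars are group means and whiskers SDs (n = 3). The sterol panel reaches -1.38 in Atf4-/- and -0.71 in Cebpg-/- cells in normal medium, and the fatty acid panel -0.91 and -0.43.

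Averaged over a branch, both chains kept the same order of genotypes in normal medium. The mean over the 17 sterol enzymes was -1.38 ± 0.03 (SD, n = 3) relative to WT in Atf4-/- and -0.71 ± 0.08 in Cebpg-/- cells. The mean over the 8 fatty acid enzymes was -0.91 on average in Atf4-/- cells, with arrays from -0.91 to -0.90, and -0.43 ± 0.07 in Cebpg-/- cells. The sterol branch was lower than the fatty acid branch on all 6 knockout arrays in normal medium, by -0.48 ± 0.03 in Atf4-/- and -0.28 ± 0.02 in Cebpg-/- cells, where the WT arrays lay between -0.03 and 0.06. These means describe the members and carry no test.

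In AAD medium the genotype differences were of much the same kind. In Atf4-/- cells 26 of 31 genes were lower than in WT, 1 was higher and 4 were not called, where 54.3% of all genes were called (22.9% lower). Idi1 measured 10.08, 10.32 and 10.34 on the WT arrays against 7.83, 7.82 and 7.79 on the Atf4-/- arrays, a change of -2.43 ± 0.09. Cyp51 read 9.69, 9.95 and 10.04 against 7.82, 7.81 and 7.56 (-2.16 ± 0.12). Stard4 read 8.40, 8.72 and 8.71 against 6.55, 6.94 and 6.34 (4.01-fold lower), and the 3 genes had no overlap between genotypes.

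Hmgcs1 measured 11.25, 11.28 and 11.49 on the WT arrays against 9.32, 9.36 and 9.41 on the Atf4-/- arrays under AAD medium (-1.98 ± 0.10). The genes that no longer passed in AAD medium were Sc5d (-0.12 ± 0.09, adjusted p = 0.287), Ebp (-0.15 ± 0.08, adjusted p = 0.113) and Tm7sf2, beside Srebf1, which did not pass in either medium. All 8 fatty acid enzymes were lower, at a median of -0.79, and Insig2 was again the higher gene (0.73 ± 0.07).

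In Cebpg-/- cells in AAD medium 25 genes were lower than in WT, none was called higher and 6 were not called, where 29.5% of all genes were called (13.4% lower). Without the second Cebpg-/- AAD array, which had the epithelial signal, 23 were lower and none higher. The shares of all genes given here are those of the full fit. Idi1 read 9.20, 9.07 and 8.99 (-1.16 ± 0.09), Hmgcs1 10.25, 10.31 and 10.06 (-1.14 ± 0.10), Cyp51 8.92, 8.81 and 8.70 (-1.08 ± 0.12) and Fdps 10.04, 9.87 and 9.86 against 10.84, 10.95 and 10.94 in WT (-0.99 ± 0.07). All of these Cebpg-/- arrays lay under the WT arrays. Fasn (-0.05 ± 0.06, adjusted p = 0.579) and Acaca (0.13 ± 0.08, adjusted p = 0.245) were the fatty acid enzymes that were not called, and 6 of the 8 were lower. Set against Atf4-/- cells in AAD medium, Cebpg-/- cells had 20 genes higher and 2 lower, Insig2 (-0.91 ± 0.07) and Sc5d (-0.30 ± 0.09, adjusted p = 0.0113), with 49.1% of all genes called (21.4% higher, 27.7% lower). Without the second Cebpg-/- AAD array the counts were again 20 higher and 2 lower. Insig1 (1.34 ± 0.10), Idi1 (1.27 ± 0.09), Stard4 (1.26 ± 0.13) and Msmo1 (1.17 ± 0.11) had the largest differences. Stard4 stood at 7.94, 7.82 and 7.85 in Cebpg-/- cells in AAD medium, above the Atf4-/- arrays. Msmo1 read 8.68, 8.64 and 8.22 in Atf4-/- and 9.62, 9.74 and 9.70 in Cebpg-/- cells, without overlap. In normal medium the Msmo1 difference between the knockouts (1.34 ± 0.11) depended on the probe set: it was -0.10 and not called with the other Msmo1 probe set, whose mean over the arrays was 4.83, near the filter value.

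The next comparison asked what 3 h of AAD medium did within each genotype. In WT cells the list was lower by modest amounts: 14 of 31 genes were lower in AAD than in normal medium, 1 was higher and 16 were not called, with 28.2% of all genes called (13.9% lower, 14.3% higher). None of the 31 was lower by 2-fold. Of the 17 sterol enzymes 10 were lower, at a median of -0.27, and of the 8 fatty acid enzymes 4 were lower, at a median of -0.15. Over all genes the median was -0.01. Macrophage markers went along with the medium as well: 6 of the 14 were lower in AAD medium in WT cells, with array means of 7.32 to 7.57 against 7.73 to 7.96, and their part in the response was not tested.

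**Figure D4:**
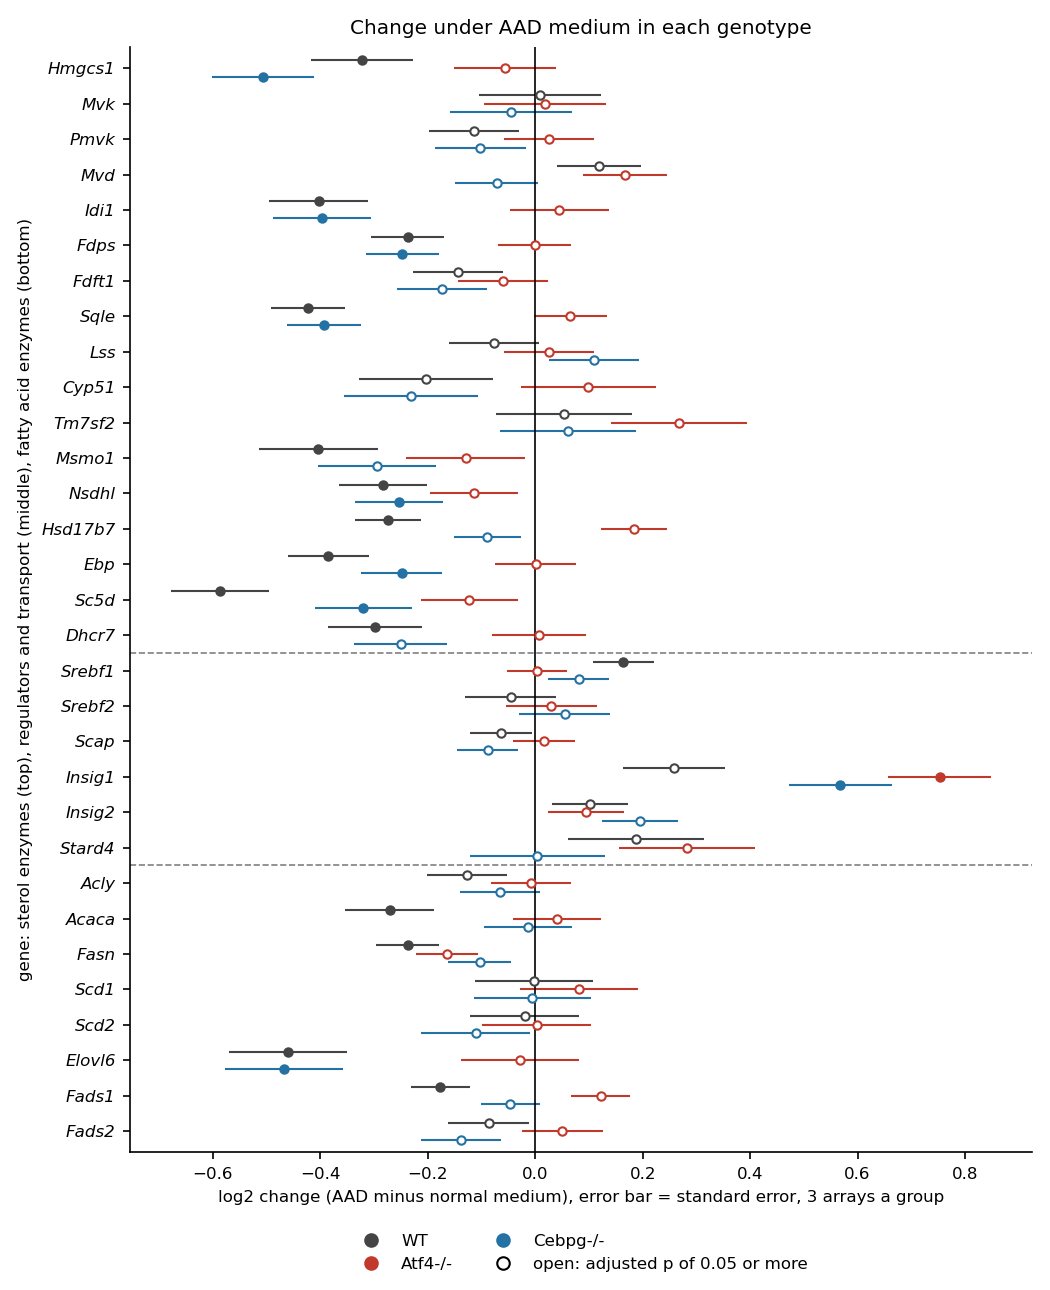
Points are log2 changes in AAD against normal medium and bars their standard errors, for WT, Atf4-/- and Cebpg-/- cells in each row; open points had an adjusted p of 0.05 or more. WT and Cebpg-/- points lie left of 0 for Sqle (-0.42 and -0.39) and Idi1 (-0.40 in both), Atf4-/- points lie near 0, and Insig1 lies to the right in all 3 genotypes.

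Sc5d, the sterol desaturase, had the largest WT change. It stood at 9.95, 10.15 and 10.08 in normal and 9.40, 9.52 and 9.50 in AAD medium, a change of -0.59 ± 0.09 (adjusted p = 0.000127 by limma) without overlap, although a dim Sc5d probe set (mean 5.62) gave 0.01. Elovl6, the elongase, stood at 8.76, 9.09 and 8.86 and at 8.36, 8.51 and 8.45 (-0.46 ± 0.11), and Sqle at 9.90, 10.03 and 10.01 and at 9.49, 9.59 and 9.58 (-0.42 ± 0.07). Msmo1 fell from 10.77, 10.68 and 10.72 to 10.28, 10.35 and 10.33 (-0.40 ± 0.11, adjusted p = 0.0115). In each of these genes all normal arrays lay above all AAD arrays.

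Idi1 (-0.40 ± 0.09), Ebp (-0.39 ± 0.08), Hmgcs1 (-0.32 ± 0.10), Dhcr7 (-0.30 ± 0.09), Nsdhl (-0.28 ± 0.08), Hsd17b7 (-0.27 ± 0.06) and Fdps (-0.24 ± 0.07) were the other sterol enzymes that fell. Of the fatty acid enzymes Acaca (-0.27 ± 0.08), Fasn (-0.24 ± 0.06) and Fads1 (-0.18 ± 0.05) fell beside Elovl6. Neither stearoyl-CoA desaturase gene passed, with 95% intervals of -0.24 to 0.23 for Scd1 and -0.24 to 0.20 for Scd2. These intervals are those of the chosen probe sets. A further Scd1 probe set (mean 6.67) gave -0.27, outside the Scd1 interval, and further Scd2 probe sets gave -0.13 and -0.004. Of the 15 calls, 8 were kept whichever array was left out: Idi1, Sqle, Msmo1, Hsd17b7, Ebp, Sc5d, Fasn and Elovl6.

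No regulator was called lower in WT cells. Srebf1 was higher by a small amount (0.16 ± 0.06, adjusted p = 0.041), a call lost in 6 of the 18 fits that left out an array. Insig1 stood at 9.44, 9.45 and 9.53 in normal and 9.57, 9.73 and 9.89 in AAD medium (0.26 ± 0.10, adjusted p = 0.055). Its arrays did not overlap but it did not pass. Insig1 passed by limma once arrays with the same replicate number were treated as pairs (adjusted p = 0.0298). Cyp51 also passed in that fit (-0.20, adjusted p = 0.00391). With these pairs 39.2% of all genes were called (19.6% lower, 19.6% higher), and on the list 15 genes were lower and 2 higher. Stard4 (0.19 ± 0.13) and Insig2 (0.10 ± 0.07) did not pass.

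In Atf4-/- cells AAD medium left the list almost without calls. Insig1 was the exception, at 6.86, 7.12 and 7.22 in normal and 7.80, 7.84 and 7.82 in AAD medium, a rise of 0.75 ± 0.10 (1.69-fold, adjusted p = 0.000211 by limma). All AAD arrays lay above all normal arrays, and the AAD level still lay under every WT array. No gene fell, and at an unadjusted p under 0.05 the counts were 1 lower and 5 higher, where 16.4% of all genes reached that level. Of all genes tested 4.7% were called in this comparison, 2.67% higher and 2.03% lower, so few calls were made anywhere. With replicate numbers as pairs Hsd17b7 also rose (0.18, adjusted p = 0.0481), where 11.1% of all genes were called. The sterol median was 0.02 and the fatty acid median 0.02.

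In Cebpg-/- cells 8 genes fell under AAD medium, 1 rose and 22 were not called, with 21.9% of all genes called (10.3% lower, 11.7% higher). Without the second Cebpg-/- AAD array 4 fell and 2 rose, and the share of all genes called in that refit is not given. Macrophage markers were lower here too, 8 of the 14, with array means of 8.06 to 8.40 against 8.49 to 8.90, and in Atf4-/- cells 2 of the 14 were lower; their part in the responses was not tested. Hmgcs1 stood at 10.86, 10.72 and 10.56 in normal and 10.25, 10.31 and 10.06 in AAD medium (-0.51 ± 0.10), and Elovl6 at 8.43, 8.57 and 8.22 and at 8.06, 8.05 and 7.71 (-0.47 ± 0.11). Idi1 read 9.64, 9.54 and 9.27 and then 9.20, 9.07 and 8.99 (-0.40 ± 0.09). The groups of these 3 genes did not overlap.

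Insig1 rose in Cebpg-/- cells from 8.69, 8.67 and 8.41 to 9.14, 9.14 and 9.20 (0.57 ± 0.10, adjusted p = 0.000443 by limma). Sqle fell from 9.26, 9.17 and 9.05 to 8.79, 8.74 and 8.78 (-0.39 ± 0.07), again with no overlap, and Fdps, Nsdhl, Ebp and Sc5d fell by less. The count of called genes was 5 without the second Cebpg-/- normal array and 6 without the first Cebpg-/- normal array or without the second or the third Cebpg-/- AAD array. The 5 calls kept whichever array was left out were Hmgcs1, Idi1, Sqle, Insig1 and Elovl6. With replicate numbers as pairs 12 fell and 2 rose, where 34% of all genes were called: Cyp51, Msmo1, Dhcr7 and Fdft1 joined the falls and Insig2 the rises.

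**Figure D5:**
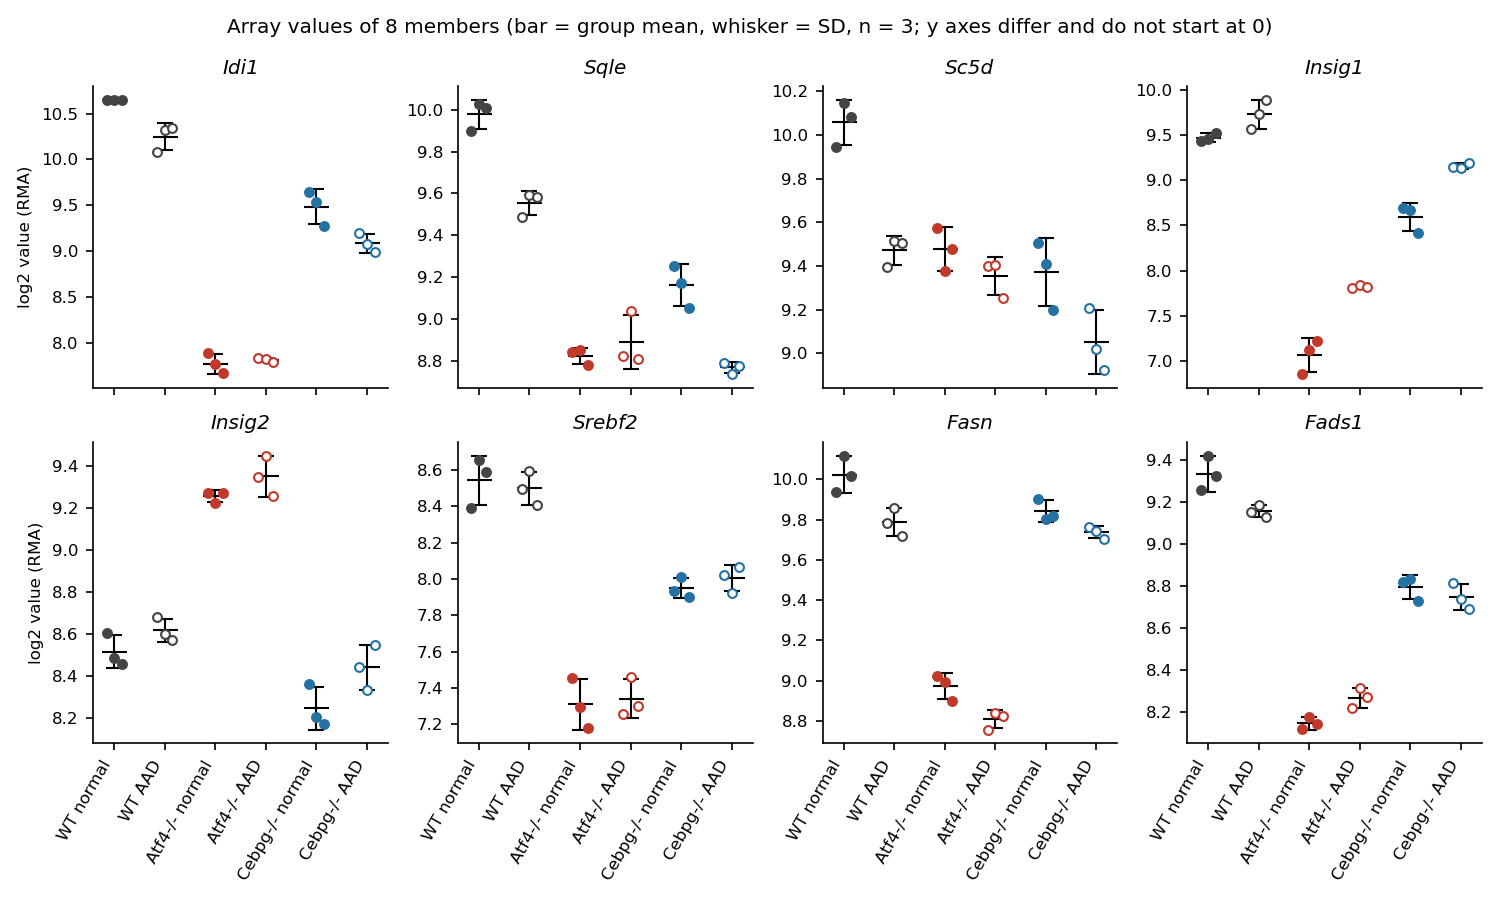
Each panel gives the log2 value of a gene on all 18 arrays by group, filled for normal and open for AAD medium, with group means and SDs (n = 3); the y axes differ. Idi1, Sqle and Sc5d drop from WT normal to WT AAD, the Insig1 points for AAD medium lie above those for normal medium in each genotype, and Insig2 is highest in both Atf4-/- groups.

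Whether the response to AAD medium depended on the genotype was tested as a difference of responses. For Atf4-/- minus WT, 7 of the 31 genes had a higher response and none a lower one, where 12.8% of all genes were called (5.73% higher, 7.04% lower). For 6 of the 7 the gene fell in WT cells and was not called in Atf4-/- cells: Sqle (difference 0.49 ± 0.10, adjusted p = 0.00314), Sc5d (0.46 ± 0.13, but -0.18 with its dim probe set), Hsd17b7 (0.46 ± 0.09, adjusted p = 0.00237), Idi1 (0.45 ± 0.13), Ebp (0.39 ± 0.11) and Fads1 (0.30 ± 0.08). Sqle, for example, stood at 8.84, 8.85 and 8.78 in normal and 8.82, 9.04 and 8.81 in AAD medium in Atf4-/- cells, which overlap, while every WT array in AAD medium lay under every WT array in normal medium. The last of the 7 was Insig1 (0.49 ± 0.13, adjusted p = 0.0234), whose response was 0.75 in Atf4-/- and 0.26 in WT cells, from a lower starting level in Atf4-/- cells. The other 6 also started lower in Atf4-/- than in WT cells, with changes in normal medium from -2.88 for Idi1 to -0.53 for Ebp. The part of the starting level in these differences was not tested.

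These differences rest on few arrays. Sqle and Hsd17b7 were kept whichever array was left out, and the count of called genes fell to 2 without the second Atf4-/- AAD array, to 3 without the first WT AAD array or the second WT normal array, and to 4 without the third WT normal array. With replicate numbers as pairs 14 genes had a higher response, where 23.8% of all genes were called (12.1% higher): Hmgcs1, Fdps, Cyp51, Msmo1, Dhcr7, Acaca and Elovl6 joined.

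Between Cebpg-/- and WT cells no difference of responses was called by limma, where 0.226% of all genes were called, 0.0801% higher and 0.146% lower. At an unadjusted p under 0.05 there were 2 higher and none lower, Insig1 (0.31 ± 0.13) and Acaca (0.26 ± 0.12), where 6.94% of all genes reached that level. The interval of the difference was -0.27 to 0.28 for Idi1 and -0.18 to 0.24 for Sqle. Larger differences could go uncalled as well. Outside the list, Angptl4 (0.71 ± 0.14, adjusted p = 0.0507 by limma) and Rnf145 (0.68 ± 0.17, adjusted p = 0.142) were not called. Between Cebpg-/- and Atf4-/- cells Sqle was the gene called (-0.46 ± 0.10, adjusted p = 0.00925), with 5.3% of all genes called, 3.69% higher and 1.61% lower. Without the second Cebpg-/- AAD array these counts were again 0 against WT and 1 against Atf4-/- cells. The count against Atf4-/- cells was 3 without the third Cebpg-/- normal array and 2 without the first WT AAD array or the first or the third Atf4-/- normal array. With replicate numbers as pairs 6 genes had a lower response, where 13.3% of all genes were called: Hmgcs1, Idi1, Cyp51, Hsd17b7 and Elovl6 beside Sqle.

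Genes around the pathway were read against the same background for Atf4-/- against WT in normal medium, 30.2% of all genes higher and 21.4% lower. Of 14 genes tested that process SREBP or sense sterol, 7 were higher and 3 lower in Atf4-/- than in WT cells in normal medium, at a median of 0.07. Rnf145, a ubiquitin ligase of the endoplasmic reticulum, was lower there (-0.81 ± 0.12) and had the largest change of this list under AAD medium in WT cells (-1.69 ± 0.12, adjusted p = 3.11e-08), and in Atf4-/- cells its change was -0.03 ± 0.12. The difference of these responses was called (1.67 ± 0.17, adjusted p = 7.3e-06). Faf2, which helps to extract proteins from the endoplasmic reticulum, was higher in WT cells under AAD medium (0.47 ± 0.06).

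Of 11 genes of sterol traffic and uptake, 6 were lower and 3 higher in Atf4-/- cells in normal medium. Tmem97, a protein of sterol traffic, was lower (-2.25 ± 0.15), as were Lrp8 (-1.33 ± 0.11) and Vldlr (-0.93 ± 0.12), which are lipoprotein receptors, while Npc1, which exports cholesterol from lysosomes, was higher (1.32 ± 0.08). In the list of LXR targets and cholesterol efflux 2 of 6 genes were higher and 3 lower. Abca1, the cholesterol exporter, was higher (1.01 ± 0.17), and Ch25h, an enzyme that makes an oxysterol from cholesterol, was lower (-2.24 ± 0.31).

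Of 18 further genes of lipogenesis and its control 5 were lower and 3 higher in Atf4-/- cells in normal medium, at a median of -0.10. All 8 fatty acid enzymes were lower there. The largest changes were those of Prkaa2, a catalytic subunit of AMP-activated kinase (0.95 ± 0.17), Mid1ip1, which activates acetyl-CoA carboxylase (-0.91 ± 0.09), Acsl3, an acyl-CoA synthetase (-0.88 ± 0.07), and Lpin1, a phosphatidate phosphatase (0.81 ± 0.25). Of 15 genes of fatty acid oxidation and related lipid and fuel use 7 were higher and 2 lower. The largest changes were those of Plin2, a lipid droplet coat protein (0.83 ± 0.09), and Angptl4, an inhibitor of lipoprotein lipase (-0.70 ± 0.10). The acyl-CoA dehydrogenases Acadm (0.62 ± 0.08) and Acadl (0.51 ± 0.08) followed. Of 11 genes of the isoprenoid side branch 2 were higher and 2 lower.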

How the data were processed

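RNA of 18 samples was hybridised to 1-colour expression arrays of 45101 probe sets, and the authors deposited log2 values made with RMA, per the submitters' processing notes. The version and the annotation used are not given in the sources used here. The values ran from 2.15 to 14.56, and no scanner signal was used, so the number of arrays limits the precision.

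Gene names came from the platform annotation: 34958 probe sets had 1 symbol, 932 had several and were not named, and 9211 were not listed. Each gene was represented by its brightest probe set over all arrays. Genes whose highest group mean was below the 40th percentile (4.65) were left out, which left 13728. limma 3.58.1 in R 4.3.3 was fitted to 6 group means over 18 arrays (12 residual degrees of freedom), p-values were adjusted by Benjamini-Hochberg across these genes, and calls were made at an adjusted p under 0.05. The code was tested on simulated data.

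Arrays of 1 genotype with the same replicate number deviated together across media in 9 of 9 pairs (correlation 0.30 to 0.69), so the numbers were taken as pairs within a genotype. The pairing comes from these values and the shared numbers in the labels. A fit with that block is given where it changed a call.

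The members and gene lists were chosen with earlier results of these data known. All members were accounted for. For each comparison the 4 called members with the largest change were given array by array, and up to 4 called genes were named from each further list, those with the largest change. Insig2, Srebf2 and several other enzymes were added to those given by array after their values were seen, as were the 2 direct comparisons of the knockouts. Genes picked in these ways tend not to overlap between groups. Lack of overlap is therefore description and no further support for a call, and its share over all genes is not given. Alternatives covered the filter, normalization, probe set choice, variance model, samples fitted, threshold, replicate block and leaving out each array.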

Additional observations from a re-analysis of the deposited data

Results flagged for a closer look

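Each value here is a difference of the AAD response between genotypes that passed the test of the difference itself (limma, adjusted p under 0.05). The response in Atf4-/- cells was higher than in WT cells for Sqle (0.49 ± 0.10, SE), Insig1 (0.49 ± 0.13), Sc5d (0.46 ± 0.13), Hsd17b7 (0.46 ± 0.09), Idi1 (0.45 ± 0.13), Ebp (0.39 ± 0.11) and Fads1 (0.30 ± 0.08). Sqle and Hsd17b7 were kept whichever array was left out, while the other 5 calls were each lost without some arrays. A dim Sc5d probe set gave -0.18. All of these genes started lower in Atf4-/- cells, and the part of the starting level was not tested. Sqle also had a lower response in Cebpg-/- than in Atf4-/- cells (-0.46 ± 0.10). Both differences of Sqle use the same Atf4-/- arrays.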

How the results depend on the processing

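Of 188 called changes, recomputed 5485 times in all under the alternatives, 5287 values kept direction and call, 197 kept direction and lost the call, and 1 reversed, that of Msmo1 between the knockouts in normal medium (-0.10) with a dim probe set. Many of these recomputations could not change the direction. The filter, the threshold, the variance model and leaving out an array of another group keep the log2 change itself. Of the 188, 33 were responses or differences of response, so the total mostly describes the knockout comparisons. In the knockout comparisons the counts of called genes stayed within 1.5 times. Leaving out an array gave 29 to 30 and 25 to 28 calls for Atf4-/- against WT in normal and AAD medium, 24 to 27 and 22 to 25 for Cebpg-/- against WT, and 22 to 25 and 21 to 22 for Cebpg-/- against Atf4-/-. The AAD responses moved more: leaving out an array gave 10 to 16 calls in WT, 1 in Atf4-/- and 5 to 11 in Cebpg-/- cells, and 2 to 8, 0 and 1 to 3 for the differences Atf4-/- minus WT, Cebpg-/- minus WT and Cebpg-/- minus Atf4-/-. At an adjusted p under 0.01 the WT response had 7 calls, the Cebpg-/- response 5 and the difference Atf4-/- minus WT 2. With replicate numbers as a block within genotype the Atf4-/- response had 2 calls, the Cebpg-/- response 14, Atf4-/- minus WT 14 and Cebpg-/- minus Atf4-/- 6, and as a random block 3, 14, 11 and 6. The block within genotype kept all 33 response calls and gained those named beside the results. The random block lost Mvk (-0.34) and Ebp (-0.21) in Cebpg-/- against WT in AAD medium. With the mean of all probe sets the Atf4-/- response had 2 calls and Cebpg-/- minus Atf4-/- 3, and the latter had 2 with the filter at the 60th percentile and 3 with a trended, robust variance. The cause of these shifts was not tested. Except for the block within genotype, the share of all genes called in these refits is not given. Whether the counts moved more than those of all genes was not tested. With 3 arrays a group, differences of response could go uncalled even where larger than the printed intervals.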

Other observations

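The neighbouring gene lists were also measured in Cebpg-/- cells in normal medium against WT, where 12.3% of all genes were higher and 11.1% lower. Of 14 genes of SREBP processing and sterol sensing 2 were higher and 4 lower, and of 11 genes of sterol traffic and uptake 3 were higher and 3 lower. Vldlr, a lipoprotein receptor, was lower in Cebpg-/- than in WT cells (-2.07 ± 0.12, SE). Of 6 LXR and efflux genes 2 were higher, with Abca1 at 0.76 ± 0.17, and 1 was lower, Ch25h at -1.08 ± 0.31. Of 11 isoprenoid genes 2 were higher and 2 lower. Of 18 further genes of lipogenesis and its control 1 was higher and 5 lower. In the list of 15 genes of fatty acid oxidation and related lipid and fuel use 4 were higher and 2 lower.

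Under AAD medium in WT cells 14.3% of all genes rose and 13.9% fell. In the lists 1 SREBP processing gene rose and 3 fell, and 4 sterol traffic genes rose and 3 fell. Vldlr rose (1.05 ± 0.12) and Tmem97 fell (-0.54 ± 0.15). Of the LXR and efflux genes 2 rose and 1 fell, and of the isoprenoid genes 2 rose and 2 fell. In the list of lipogenesis and its control 2 rose and 5 fell. In the list of fatty acid oxidation and related lipid and fuel use 2 rose and 1 fell. Pdk4, a kinase that restrains pyruvate oxidation, rose by the largest amount of that list (2.63 ± 0.31).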
